A study of Homo sapiens with 6 samples.

Results

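The transcripts described here carry the type nonsense-mediated decay in the GENCODE 29 annotation of GRCh38 and had a mean of 20 estimated reads or more over the 6 RNA-seq libraries of the series. The rule found 3603 such transcripts among 177456 transcripts quantified, of which 43924 reached the same mean. They belong to 2612 parent genes: 1903 genes had a single such transcript, 709 had several, and MYB had the most with 9. They were selected on their mean reads over all 6 libraries together, so the difference between the groups was not used. Just inside the threshold lay PABPC1-212 with a mean of 20.005 reads, and just outside lay ARHGEF39-205 with 19.997. Within 1 read of the threshold were 80 transcripts inside and 85 outside. A wild-type mean under 20 reads was found for 246 of the 3603 and a knockout mean under 20 for 283, so these entered through the other group, and 3074 reached 20 reads in both groups. ATF3 itself had no transcript that met the rule.

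The libraries came from EoL-1, an established human eosinophilic leukemia cell line, as polyadenylated RNA prepared with a stranded kit. A group of 3 libraries was from wild-type cells and a group of 3 from cells in which ATF3, a stress-induced transcription factor, was knocked out with CRISPR/Cas9. The design line of the series has the word knockdown for these cells, whereas the sample labels, followed here, have knockout. Per the labels both groups were grown in the same medium with serum and antibiotics, with no other treatment named. The labels give neither the number of clones behind the knockout nor whether the replicates were separate cultures, so the p-values measure the spread between these libraries, which may be technical.

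Nonsense-mediated decay removes mRNAs on which translation ends early. In mammalian cells a stop codon is read as early mainly when it lies well upstream of the last exon-exon junction, where the exon junction complex left by splicing recruits UPF1 and its partners, and phosphorylation of UPF1, cleavage and decay of the mRNA follow. Many genes for splicing factors, the SR proteins among them, keep such a transcript as part of their own regulation: the protein promotes inclusion of a "poison" exon, or splicing within its own message, that brings in an early stop. The annotated type is a prediction from the position of the stop codon, and the steady level of such a transcript depends on both how much is made and how fast it decays.

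The following added exons show how the early stop arises in transcripts on which the results turn. Each sequence runs from the first base of the exon, 5′ to 3′ on the strand of the gene, to the end of the stop codon, which stands in capitals. The exon is absent from the protein-coding transcript of the gene with the most reads. Sequences and positions are from GENCODE 29 on GRCh38, and every position below is that of the whole exon. Splicing regulators come first: SRSF6 (an SR protein), TRA2B (an SR-related activator of exon inclusion), TIAL1 (an RNA-binding regulator of splicing and translation) and U2SURP (associated with the U2 snRNP).
SRSF6-202 (chr20:43459153-43459420, plus strand, 268 bases): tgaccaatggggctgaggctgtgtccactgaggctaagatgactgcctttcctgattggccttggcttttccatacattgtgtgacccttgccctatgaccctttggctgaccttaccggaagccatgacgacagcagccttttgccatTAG
TRA2B-206 (chr3:185931577-185931852, minus strand, 276 bases): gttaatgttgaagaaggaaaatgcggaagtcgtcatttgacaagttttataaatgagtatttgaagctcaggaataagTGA
TIAL1-213 (chr10:119580471-119580846, minus strand, 376 bases): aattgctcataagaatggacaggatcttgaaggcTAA
U2SURP-203 (chr3:143024484-143024548, plus strand, 65 bases): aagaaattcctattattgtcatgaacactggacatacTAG

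Exons of MAGOHB (a core protein of the exon junction complex), INTS6 (a subunit of Integrator) and CENPC (a centromere protein) are given for the share values described further on.
MAGOHB-209 (chr12:10612640-10612978, minus strand, 339 bases): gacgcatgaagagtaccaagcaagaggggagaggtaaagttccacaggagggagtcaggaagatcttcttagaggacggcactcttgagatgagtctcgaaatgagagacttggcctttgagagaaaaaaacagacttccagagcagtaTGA
INTS6-207 (chr13:51423030-51423090, minus strand, 61 bases): gtactggggacacacagatggaatTAA
CENPC-203 (chr4:67510673-67511025, minus strand, 353 bases): gttgcctgaaatgcTAA

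The stop codon was TGA in TRA2B and MAGOHB, TAG in SRSF6 and U2SURP, and TAA in TIAL1, INTS6 and CENPC. The distance from the stop to the last junction was 534 bases in SRSF6-202, 1015 in TRA2B-206, 969 in TIAL1-213 and 1702 in U2SURP-203. It was 440 bases in MAGOHB-209, 2398 in INTS6-207 and 1485 in CENPC-203.

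**Figure D1:**
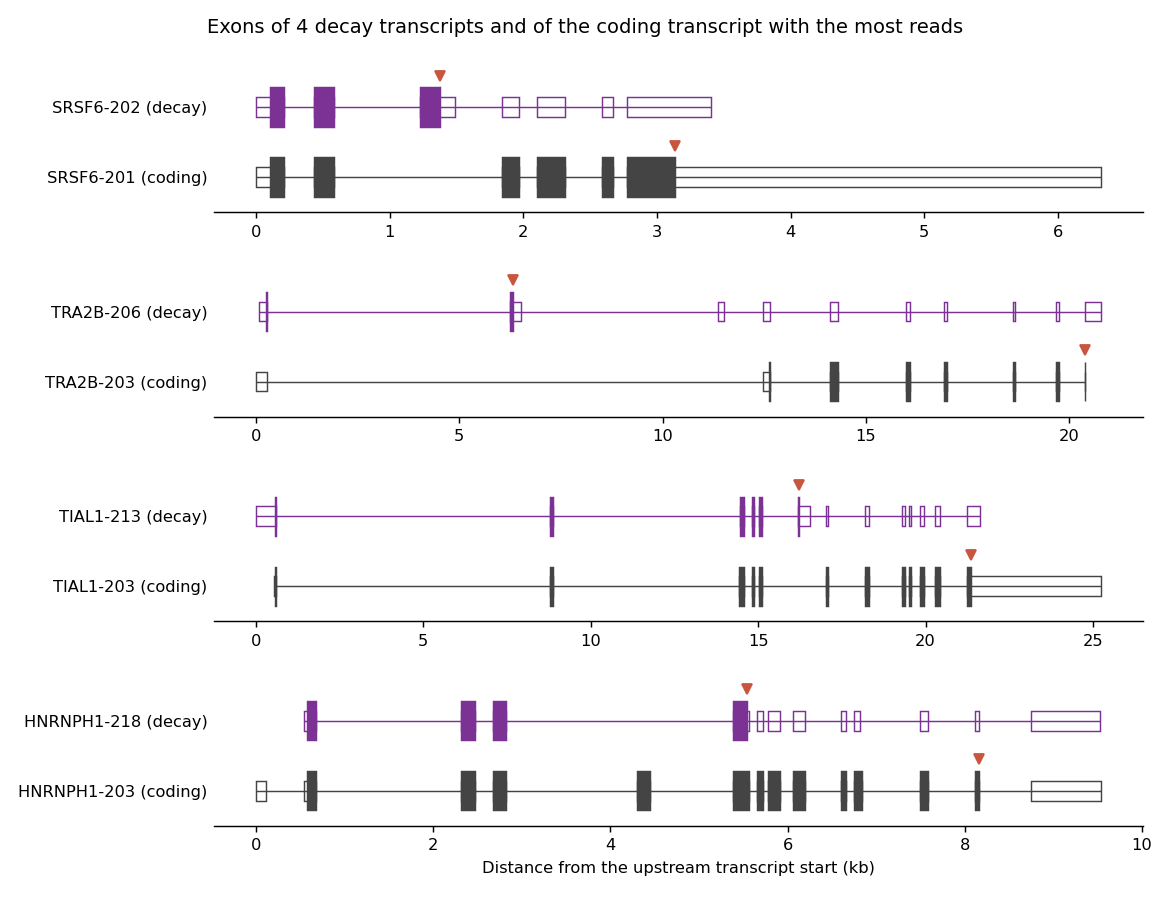
Exon maps of 4 decay transcripts (purple) above the protein-coding transcript of the same gene with the most reads (grey), drawn to scale; the x axis is the distance in kilobases from the upstream transcript start, wide boxes are coding sequence, narrow boxes are untranslated exons, lines are introns and the triangle marks the stop codon. In SRSF6-202, TRA2B-206 and TIAL1-213 the stop lies in an exon that the coding transcript lacks, and in HNRNPH1-218 it follows the skipping of 1 coding exon.

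Over all 3603 transcripts a stop codon was annotated in 3597: TGA in 2088, TAA in 807 and TAG in 702. In 3583 the stop lay 50 bases or more before the last junction, with a median distance of 452 bases (interquartile range 217 to 954) and a median of 4 junctions after it. The transcripts were sorted by where the stop falls in the protein-coding transcript of the gene with the most reads. In 1088 an exon of that transcript was skipped and the stop lay in none of its introns. Stops in another of its exons and stops outside it were not separated in this class. In 910 the stop lay in an added exon, of median length 122 bases (interquartile range 93 to 174). In 756 it lay in an exon of that transcript with none skipped, in 423 in other intron sequence, and in 51 in a wholly retained intron. The normal stop was kept in 181 with an intron spliced after it. The other stops lay outside that transcript with no exon of it skipped (95) or had no coding transcript of the gene to be set against (93). The start of the coding sequence was not found in 742, by the annotation's own tag.

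Depth was similar across libraries, at 26766103 to 30117281 estimated reads. ATF3 fell from 20.7 ± 3.88 to 6.16 ± 1.96 CPM (counts scaled to library size; SD, n = 3 each), a log2 fold change of -1.75, knockout minus wild type (edgeR adjusted p = 0.0098), and still had reads in every knockout library. Of 10 eosinophil markers 4 were at 0 in all libraries and 2 could be tested; both rose, and the summed level of the list was 36.5 to 51.9 CPM in wild type and 116 to 182 CPM in knockout. The summed level of 7 neutrophil and granule precursor genes was 52.4 to 74.7 and 101 to 140 CPM, with 5 at 0, and that of 6 endothelial and stromal genes was 16.0 to 19.1 and 37.4 to 41.7 CPM, with 1 at 0. Lymphocyte markers summed to 5.54 to 8.26 and 6.88 to 8.09 CPM with 3 of 7 at 0, and mast cell markers to under 1 CPM in each library with 2 of 5 at 0. The part of these differences in the results below was not tested. In bulk RNA, fewer cells of a type and less RNA per cell cannot be told apart.

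For each transcript the share is its estimated reads as a percent of all reads of the parent gene in that library, and its log2 change is that of the share, knockout minus wild type, with its standard error (SE). The median share was 6.58% for the decay transcripts and 9.19% for all 39664 transcripts tested. A share above 50% was held by 242 and a share under 5% by 1527. The comparison asked whether these shares differed between wild-type and ATF3 knockout cells. Of the 3603, 3506 could be tested, and 97 could not because the other transcripts of the gene had a mean under 20 reads; 79 of those 97 belong to read-through genes, which join neighbouring genes. HNRNPUL2-BSCL2-201 is an example, with all the reads of its gene in each library.

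No share of a decay transcript passed an adjusted p of 0.05 in edgeR's quasi-likelihood test, against 0% of all transcripts tested. The smallest adjusted p was 0.0911 among decay transcripts and 0.0834 among all. An unadjusted p under 0.05 was found for 321 decay transcripts, 125 higher and 196 lower in the knockout, which is 9.16% against a background of 9.45% (4.72% in each direction). DESeq2 with the same gene offset called 158 (59 higher, 99 lower), 4.51% against 4.73% of all transcripts (2.3% higher, 2.43% lower). Each transcript set against the others of its gene gave 30 calls in diffSpliceDGE (13 higher, 17 lower), 0.858% against 0.704% (0.38% higher, 0.324% lower). The same contrast in limma-voom diffSplice gave 32 (10 higher, 22 lower), 0.916% of decay transcripts against 0.96% of all (0.475% higher, 0.485% lower). These tests, and the counts below, include transcripts whose mean reads met the rule through a single group. At 0 in a whole group were 83 of the decay transcripts tested and 867 of all transcripts tested. SNF8-206, PLSCR1-205 and SAP30BP-211, given below with no test, are among the DESeq2 and diffSpliceDGE calls. How many calls are of this kind was not counted. RACK1-210, of a ribosome-bound scaffold gene and chosen after its values were seen, was the only decay transcript that all 3 alternatives called: its share was 0.644, 0.674 and 0.869% in wild-type and 0.233, 0.0394 and 0.0948% in knockout libraries, with an edgeR adjusted p of 0.335 (log2 -2.57). It has no base or junction of its own. In diffSpliceDGE the other transcripts for which a DESeq2 or limma-voom adjusted p is given below did not pass (adjusted p of 0.72 or more in each).

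Shares of 615 decay transcripts did not overlap between the groups, 246 higher and 369 lower in the knockout. That is 17.5%, against 18.8% of all transcripts tested (9.46% higher, 9.36% lower). By direction, decay transcripts lay under the background on the higher side and over it on the lower side: 3.57 and 5.59% by unadjusted p, 1.68 and 2.82% in DESeq2, and 7.02 and 10.5% by overlap. On the fitted scale 1619 lay higher and 1887 lower, so 46.2% lay higher against 50.1% of all, with a median log2 of -0.04 against 0.00. Spread within groups was wider for decay transcripts, with a median coefficient of variation of 26.7% against 19.1%.

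**Figure D2:**
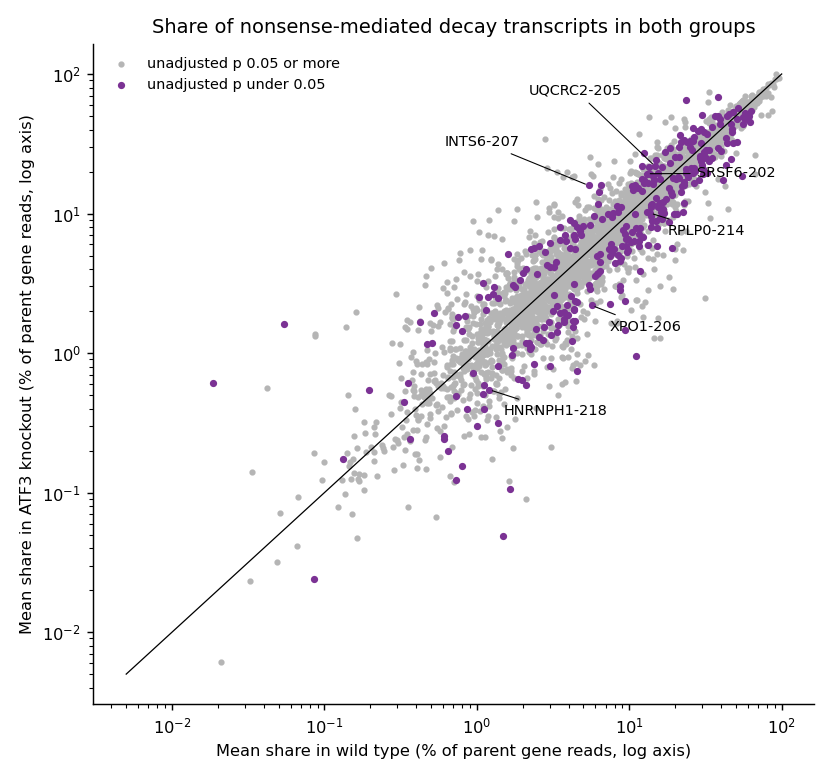
Mean share of the parent gene's reads in wild type (x axis) and ATF3 knockout (y axis), in percent on log axes, for 3423 decay transcripts with reads in both groups; purple points have an unadjusted edgeR p under 0.05, none passed after adjustment, and the line marks equal shares. The points widen around the line toward low shares, and 83 tested transcripts at 0 in a whole group are not drawn.

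The 6 decay transcripts with the most reads hold large parts of the reads of abundant genes, and 5 of them had shares that overlapped between the groups. By TPM, which scales reads by transcript length, HSPA9-215 held 11.8 to 13.5% of its gene over the 6 libraries and RPS3-216 17.6 to 18.4%. TKT-204 held 34.8 to 40.3% and RPLP0-214 8.85 to 13%, all 4 less than by reads. RPS27-205 (92.2 to 94.1%) and RPS3-204 (26.8 to 29.4%) held more by TPM. RPS27-205, of a small-subunit ribosomal protein gene, had shares of 90.7, 91.4 and 91.3% in wild-type and 92.5, 90.5 and 92.9% in knockout libraries. No protein-coding transcript of RPS27 was analysed here. RPS3-216, of another small-subunit protein gene, held 37, 37.9 and 38.4% in wild-type and 37.9, 38.1 and 38.8% in knockout libraries, and RPS3-204 held 18, 17.7 and 18.5% in wild-type and 18.1, 18.8 and 19.4% in knockout libraries. These RPS3 values overlap between the groups. For TKT-204, of transketolase in the pentose phosphate pathway, the share was 58.8, 60.5 and 59.8% in wild-type and 63.6, 54.9 and 57.5% in knockout libraries. HSPA9-215, of the mitochondrial chaperone mortalin, held 54.2, 54.8 and 53.7% in wild-type and 54.9, 54.8 and 54.1% in knockout libraries, while its gene fell from 827 to 510.2 CPM (log2 -0.70, edgeR adjusted p = 0.0081). The HSPA9 coding transcript with the most reads, HSPA9-202, had a mean of 305 reads, against 10082 for HSPA9-215. Transcripts without a match in the annotation are not in these gene reads, so the share is that of the HSPA9 reads analysed here. RPLP0-214, of the acidic stalk protein of the large subunit, held 14, 13.4 and 13.5% in wild-type and 10.2, 9.47 and 10.6% in knockout libraries. All 3 knockout libraries lay below all 3 wild-type libraries for RPLP0-214, with log2 -0.44 ± 0.04 SE, an edgeR adjusted p = 0.107, a DESeq2 adjusted p of 4.31e-17 and a limma-voom adjusted p of 0.0903. This transcript has no base or junction of its own, so its reads were divided with similar RPLP0 transcripts by the estimate.

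Among shares that lay higher in the knockout, the rule for naming transcripts, by smallest p, took UQCRC2-205, INTS6-207 and SNF8-206. UQCRC2-205, of a core subunit of respiratory complex III, held 15.3, 14 and 15% in wild-type and 22.1, 21.1 and 22.2% in knockout libraries. The groups did not overlap (log2 0.56 ± 0.05 SE, edgeR adjusted p = 0.0911, DESeq2 adjusted p = 3.11e-18, limma-voom adjusted p = 0.00436), and the gene as a whole was at 194 CPM in both groups. INTS6-207, whose added exon of 61 bases is printed above up to its stop codon, held 5.47, 4.78 and 6.0% in wild-type and 17.6, 16.7 and 13.4% in knockout libraries. Its share lay higher in each knockout library than in any wild-type library (log2 1.55 ± 0.16 SE, edgeR adjusted p = 0.107, DESeq2 adjusted p = 9.21e-14, limma-voom adjusted p = 0.000508). It, too, has no base or junction of its own. SNF8-206, of an ESCRT-II subunit, was listed at 0 in all wild-type libraries and held 4.84, 4.87 and 6.87% in the knockout. It met the mean of 20 reads through the knockout libraries alone, so it had to differ once included, and its difference is given with no test. It has no base or junction of its own, and the summed decay share of SNF8 overlapped, at 19.1 to 25.2% in wild-type and 20.9 to 26.5% in knockout libraries (log2 0.05).

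Among shares that lay lower, the same rule took PLSCR1-205, SAP30BP-211 and XPO1-206. PLSCR1-205, of a phospholipid scramblase, held 17.8, 20.8 and 20.8% in wild type and was listed at 0 in all knockout libraries, while PLSCR1 as a whole had a log2 fold change of -0.04. SAP30BP-211 held 8.35, 7.78 and 6.77% in wild type and was at 0 in the knockout. Both met the mean of 20 reads through the wild-type libraries alone, so they too are given with no test. Neither has a base of its own, though SAP30BP-211 has 1 junction of its own. Here 0 is an estimate, not a count of absent molecules. For PLSCR1 the summed decay share was 22.1, 25.3 and 23.7% in wild-type and 0.527, 0.83 and 3.06% in knockout libraries. For SAP30BP it was 31.6, 26.8 and 32.4% in wild-type and 15.7, 14.5 and 11.3% in knockout libraries. These sums include PLSCR1-205 and SAP30BP-211, so they are given with no test. XPO1-206, of the main nuclear export receptor, held 6.65, 5.1 and 5.21% in wild-type and 2.03, 2.21 and 2.36% in knockout libraries. It has 875 bases that no other transcript on its strand holds, and its reads were 489, 403 and 387 in wild-type and 167, 209 and 198 in knockout libraries. The groups were well apart (log2 -1.36 ± 0.14 SE, edgeR adjusted p = 0.106, DESeq2 adjusted p = 1.57e-14, limma-voom adjusted p = 0.0201).

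RNA-processing genes were described by 5 lists: SR proteins and their kinases, hnRNPs and other splicing regulators, the spliceosome, the decay machinery with the exon junction complex, and 3′ end formation. They hold 228 genes, 100 of them with 160 decay transcripts, all tested. No share passed. An unadjusted p under 0.05 was found for 20 (8 higher, 12 lower), 12.5% against the background of 9.45%, and DESeq2 called 11 (6 higher, 5 lower), 6.88% against 4.73%. Groups did not overlap for 25 (8 higher, 17 lower), 15.6% against 18.8%. The fitted median was -0.03 on the log2 scale, with 77 higher and 83 lower. Of the genes themselves 224 were tested, and 11 rose and 31 fell, against 11.4% and 9.72% of all genes. Without wild-type replicate 1 no gene of the series passed (smallest adjusted p = 0.0503, 3496 of 13385 genes with an unadjusted p under 0.05), which holds for every gene called here.

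**Figure D3:**
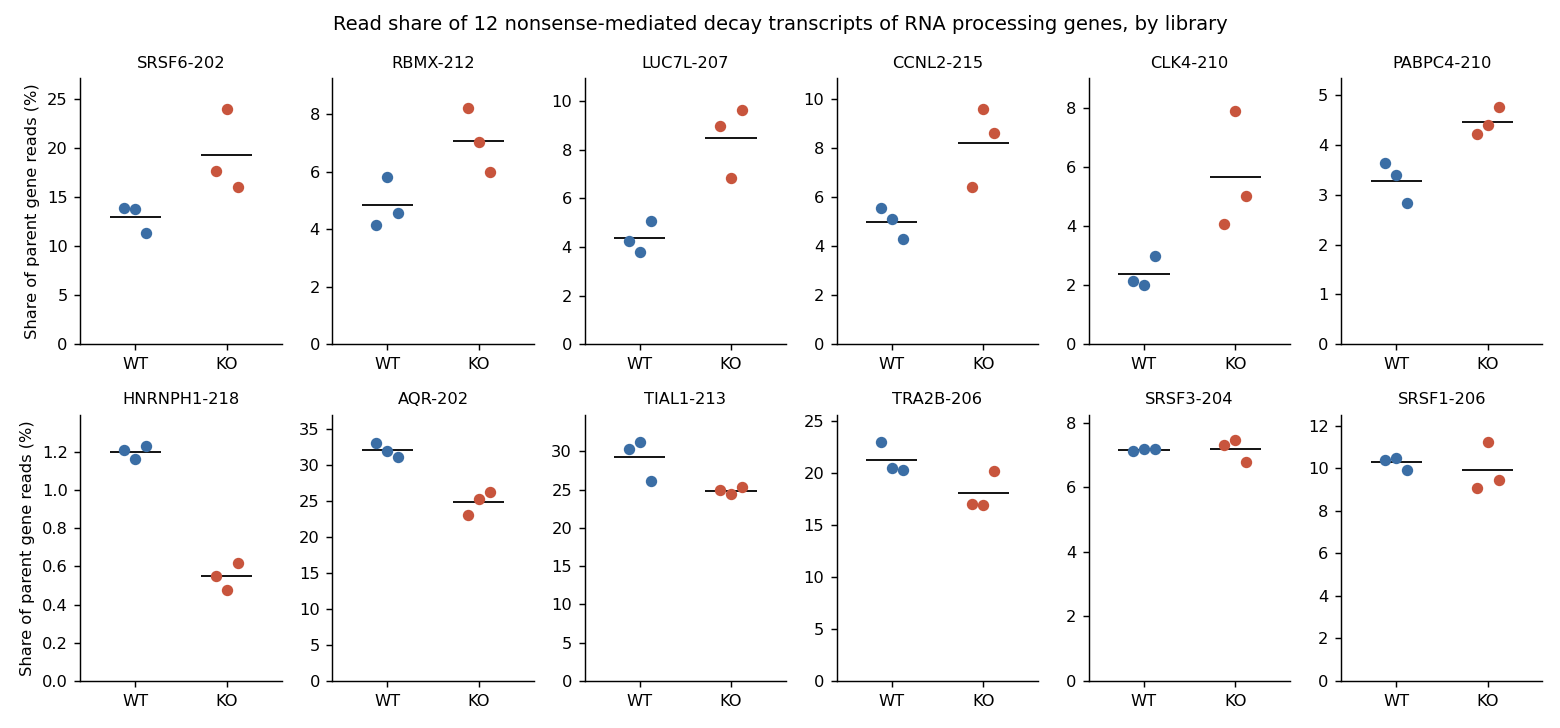
Share of the parent gene's reads (y axis, percent, from 0) in each wild-type (WT, blue) and ATF3 knockout (KO, red) library for 12 decay transcripts of RNA-processing genes chosen after their values were seen; points are libraries and lines are group means. The first 6 lie higher in all knockout libraries, HNRNPH1-218, AQR-202, TIAL1-213 and TRA2B-206 lie lower, and SRSF3-204 and SRSF1-206 overlap.

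Among SR proteins and relatives, 17 of 31 genes had 31 decay transcripts. At an unadjusted p under 0.05, 2 lay higher and 2 lower, 12.9% against 9.45% of all transcripts, and DESeq2 called 2 higher and 1 lower, 9.68% against 4.73%. The lower DESeq2 call is SRSF11-211, which met the rule through the wild-type libraries. Groups did not overlap for 6 (2 higher, 4 lower), 19.4% against 18.8%. ACIN1-206, of the splicing cofactor acinus, had the most reads in this list. It held 24.6, 23.7 and 24.7% in wild-type and 21.5, 19.9 and 23.6% in knockout libraries. Its groups did not overlap (log2 -0.17 ± 0.07 SE, edgeR adjusted p = 0.525), while ACIN1 rose from 288 to 373 CPM (log2 0.37, edgeR adjusted p = 0.013). The other transcripts named for these lists were chosen after their values were seen.

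SRSF6-202, with the exon of 268 bases shown above up to its stop codon, held 13.9, 13.8 and 11.3% in wild-type and 17.7, 24 and 16.1% in knockout libraries. Every knockout library lay above every wild-type library, and knockout replicate 2 was highest. The share had log2 0.57 ± 0.18 SE, with an edgeR adjusted p = 0.415, a DESeq2 adjusted p of 0.0464 and a limma-voom adjusted p of 0.22. Reads of the transcript itself overlapped, at 972, 947 and 792 in wild-type and 958, 1101 and 931 in knockout libraries, while SRSF6 fell from 249 to 191 CPM (log2 -0.38, edgeR adjusted p = 0.0281). All 268 bases of the exon are found in no other transcript on its strand.

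The decay transcripts named for SRSF3, SRSF1 and SRSF7 overlapped between the groups, and that of TRA2B lay lower. SRSF3-204 held 7.12, 7.19 and 7.2% in wild-type and 7.32, 7.46 and 6.79% in knockout libraries. SRSF1-206, of the founding SR protein, held 10.4, 10.5 and 9.95% in wild-type and 9.08, 11.3 and 9.47% in knockout libraries, and SRSF7-208, which keeps an intron, held 30.8, 30.1 and 30.1% in wild-type and 31.3, 26 and 26.8% in knockout libraries. These 3 overlap between the groups. TRA2B-206 held 22.9, 20.5 and 20.2% in wild-type and 17, 16.9 and 20.1% in knockout libraries (log2 -0.24 ± 0.09 SE, edgeR adjusted p = 0.51). Knockout replicate 3 lay just below the lowest wild-type library. The TRA2B exon printed above up to its stop codon also occurs in other TRA2B transcripts, so TRA2B-206 has no base of its own. CLK1-204, of a kinase that phosphorylates SR proteins, held 12.5, 16.4 and 13.8% in wild-type and 14.2, 21.1 and 14.7% in knockout libraries and overlapped. CLK4-210, of a related kinase, held 2.14, 1.99 and 3.0% in wild-type and 4.06, 7.88 and 5.03% in knockout libraries (log2 1.24 ± 0.35 SE, edgeR adjusted p = 0.375, DESeq2 adjusted p = 0.0447, limma-voom adjusted p = 0.373). It rests on 25 to 33 reads per wild-type library and 48 to 101 per knockout library, and the summed decay share of CLK4 had a log2 of -0.03. SRSF11-211 lay lower (0.581, 0.643 and 0.713% in wild-type and 0.209, 0.137 and 0.246% in knockout libraries), on at most 60.3 reads. Its knockout mean was under 20 reads, so it met the rule through the wild-type libraries and is given with no test.

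Of 60 hnRNPs and splicing regulators, 28 genes had 47 decay transcripts. Of these 3 lay higher and 3 lower with an unadjusted p under 0.05, 12.8% against 9.45%, and DESeq2 called 1 higher and 2 lower, 6.38% against 4.73%. The higher DESeq2 call is RBM5-202, which met the rule through the knockout libraries. Groups did not overlap for 5 (2 higher, 3 lower), 10.6% against 18.8%. HNRNPU-228, of a nuclear scaffold RNA-binding protein, had the most reads and held 11.2, 9.87 and 11.2% in wild-type and 10.6, 8.74 and 7.97% in knockout libraries, which overlap. HNRNPH1-218, of a protein that binds G-rich RNA, held 1.21, 1.16 and 1.23% in wild-type and 0.547, 0.476 and 0.618% in knockout libraries. The highest knockout share lay well below the lowest wild-type share (log2 -1.13 ± 0.13 SE, edgeR adjusted p = 0.118, DESeq2 adjusted p = 3.13e-12, limma-voom adjusted p = 0.000173). A second transcript, HNRNPH1-219, held 0.927, 0.708 and 0.798% in wild-type and 1.08, 0.742 and 0.819% in knockout libraries and overlapped. RBMX-212, of the X-linked hnRNP G, held 4.16, 5.8 and 4.55% in wild-type and 8.2, 7.02 and 5.98% in knockout libraries. The groups did not overlap (log2 0.55 ± 0.17 SE, edgeR adjusted p = 0.422), and RBMX fell from 596 to 414 CPM (log2 -0.52, edgeR adjusted p = 0.00787). As with SRSF6-202, reads of RBMX-212 overlapped between groups, at 690.3, 981 and 743 in wild-type and 899.6, 799 and 709.9 in knockout libraries.

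TIAL1-213, whose 376-base exon begins with the short stretch to the TAA shown above, held 30.3, 31.2 and 26.2% in wild-type and 25, 24.4 and 25.3% in knockout libraries. The groups did not overlap, with wild-type replicate 3 nearest the knockout (log2 -0.23 ± 0.07 SE, edgeR adjusted p = 0.421). HNRNPL-202, of a CA-repeat binding protein, held 3.39, 3.37 and 3.8% in wild-type and 3.95, 3.56 and 3.48% in knockout libraries, and RBM39-216, of a U2AF-related splicing factor, held 11.9, 11.6 and 11.6% in wild-type and 14.4, 10.6 and 13.8% in knockout libraries. Both overlap. HNRNPDL-209 held 14, 8.54 and 13.9% in wild-type and 9.28, 9.04 and 9.31% in knockout libraries, with wild-type replicate 2 among the knockout values, while HNRNPDL fell from 479.6 to 376 CPM (log2 -0.35, edgeR adjusted p = 0.0114). RBM5-202, of a splicing regulator linked to apoptosis, lay higher (0.271, 0.524 and 0.613% in wild-type and 1.03, 1.23 and 1.23% in knockout libraries) on 11 to 53 reads. Its wild-type mean was under 20 reads, so it met the rule through the knockout libraries and is given with no test.

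The spliceosome list had 33 of 76 genes with 55 decay transcripts. In this list 2 lay higher and 6 lower with an unadjusted p under 0.05, 14.5% against 9.45%, and DESeq2 called 2 in each direction, 7.27% against 4.73%. Groups did not overlap for 10 (3 higher, 7 lower), 18.2% against 18.8%. DDX5-218, of an RNA helicase, had the most reads and held 34.2, 32.1 and 32.3% in wild-type and 34.8, 32.7 and 32.5% in knockout libraries, which overlap. AQR-202, of the intron-binding helicase aquarius, held 33.1, 32 and 31.2% in wild-type and 23.1, 25.3 and 26.2% in knockout libraries. All knockout libraries lay below all wild-type libraries (log2 -0.37 ± 0.06 SE, edgeR adjusted p = 0.162, DESeq2 adjusted p = 2.88e-05, limma-voom adjusted p = 0.237), and it has 703 bases of its own. SNRNP70-202, of the U1 snRNP protein U1-70K, held 32.3, 29.2 and 31.6% in wild-type and 28.6, 24.6 and 28.2% in knockout libraries (log2 -0.19 ± 0.07 SE, edgeR adjusted p = 0.494). U2AF2-208, of the protein that reads the polypyrimidine tract, carries its stop at the first codon of a 64-base exon and held 0.651, 0.708 and 0.816% in wild-type and 0.465, 0.483 and 0.519% in knockout libraries. Both lay lower in all knockout libraries.

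LUC7L-207, of a U1 snRNP-associated protein, held 4.24, 3.8 and 5.05% in wild-type and 8.96, 6.83 and 9.65% in knockout libraries. Groups did not overlap (log2 0.95 ± 0.20 SE, edgeR adjusted p = 0.244, DESeq2 adjusted p = 0.00127, limma-voom adjusted p = 0.0936), and LUC7L rose from 59.5 to 82.8 CPM (log2 0.48, edgeR adjusted p = 0.0156). Its summed decay share overlapped, at 8.88, 8.71 and 5.05% in wild-type and 8.96, 6.83 and 9.65% in knockout libraries (log2 0.17). CCNL2-215, of the splicing-associated cyclin L2, held 5.55, 5.12 and 4.3% in wild-type and 6.4, 9.6 and 8.61% in knockout libraries (log2 0.72 ± 0.19 SE, edgeR adjusted p = 0.339, DESeq2 adjusted p = 0.0129, limma-voom adjusted p = 0.62). The summed decay share of CCNL2 overlapped, at 14.4, 12 and 10.7% in wild-type and 17.4, 21.8 and 14.2% in knockout libraries. U2SURP-203 overlapped, at 19.9, 17.2 and 19.4% in wild-type and 19.4, 23.8 and 19.3% in knockout libraries. For 3′ end formation 13 of 30 genes had 14 decay transcripts, 1 with an unadjusted p under 0.05 and higher, 7.14% against 9.45%. It is PABPC4-210, of a cytoplasmic poly(A)-binding protein, at 3.63, 3.4 and 2.83% in wild-type and 4.22, 4.41 and 4.76% in knockout libraries (log2 0.44 ± 0.12 SE, edgeR adjusted p = 0.351, DESeq2 adjusted p = 0.025, limma-voom adjusted p = 0.971), while PABPC4 fell from 333 to 286 CPM (log2 -0.22, edgeR adjusted p = 0.0448). CSTF1-206, of a cleavage stimulation factor, had the most reads and held 47.7, 48.8 and 52.3% in wild-type and 50.9, 52 and 48.1% in knockout libraries, which overlap.

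The decay machinery and exon junction complex had 9 of 31 genes with 13 decay transcripts. Of these 3 lay higher and 10 lower on the fitted scale, 1 had an unadjusted p under 0.05 (lower), 7.69% against 9.45%, and DESeq2 called 0 against 4.73% of all. RUVBL2-208, of an ATPase that works with the SMG1 kinase, had the most reads and held 57.9, 57.2 and 62.8% in wild-type and 58.5, 49.6 and 51% in knockout libraries. MAGOHB-209 held 23.5, 21.6 and 19.6% in wild-type and 20.1, 22 and 23.5% in knockout libraries, and DHX34-202, of a helicase that aids UPF1 phosphorylation, held 10.9, 13.3 and 10.6% in wild-type and 8.77, 10.8 and 12.9% in knockout libraries. All 3 overlap between the groups.

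The genes of the machinery moved in both directions, where 11.4% of all genes rose and 9.72% fell. Of the 29 tested and reported here, 2 rose: UPF1, the central helicase, and NCBP1, the large cap-binding subunit. UPF1 was at 168, 177 and 169 CPM in wild-type and 204, 205 and 201 CPM in knockout libraries (log2 0.25 ± 0.05 SE, edgeR adjusted p = 0.0221). NCBP1 had a log2 fold change of 0.24 (adjusted p = 0.0396). The 6 that fell include 4 genes of the exon junction complex. MAGOHB was at 30.1, 26.8 and 28.8 CPM in wild type and 17.0, 18.9 and 16.9 CPM in knockout (log2 -0.70 ± 0.08 SE, edgeR adjusted p = 0.0081). Its near-copy MAGOH fell by 0.33 (adjusted p = 0.0207), so reads could be divided between these paralogs, and their partner RBM8A fell by 0.33 (adjusted p = 0.0133) on the log2 scale. CASC3, the fourth, fell by 0.24 (adjusted p = 0.0414), UPF3A, which bridges UPF2 to the complex, fell by 0.20 (adjusted p = 0.0468), and PABPC1, the main cytoplasmic poly(A)-binding protein, fell by 0.31 (adjusted p = 0.0291). UPF2 (log2 0.01), the kinase SMG1 (0.01), the nuclease SMG6 (-0.14) and EIF4A3 (0.04), the helicase that anchors the complex on mRNA, did not pass.

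**Figure D4:**
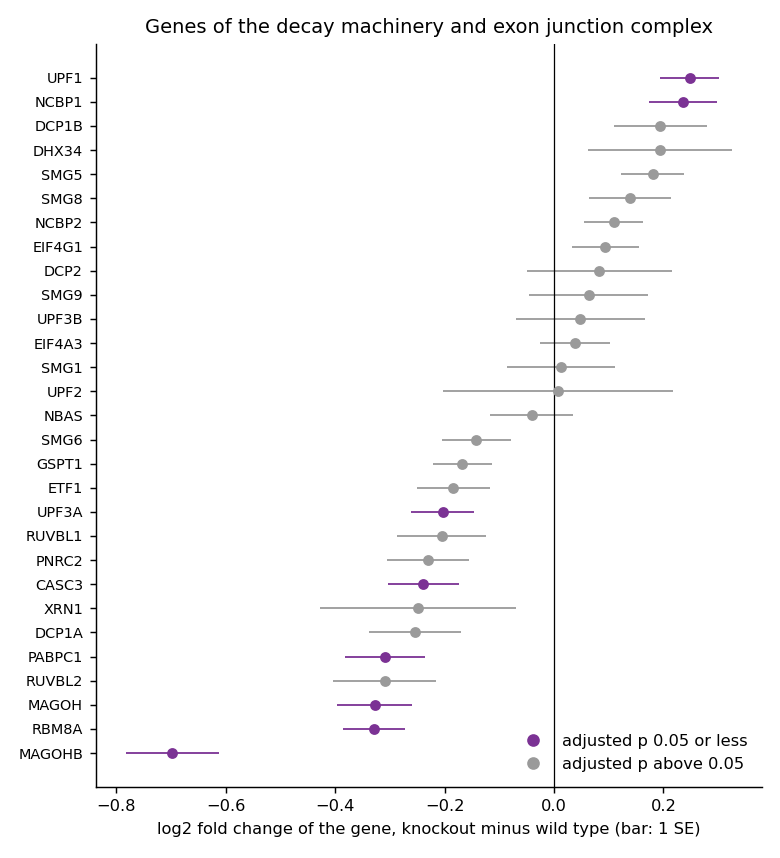
Log2 fold change of gene level (x axis, knockout minus wild type) with 1 SE for 29 genes of the decay machinery and exon junction complex; purple marks an edgeR adjusted p of 0.05 or less. UPF1 and NCBP1 lie at 0.25 and 0.24 and MAGOHB lies lowest at -0.70.

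Ribosomal protein and translation factor genes had 29 decay transcripts in 14 of 36 genes. An unadjusted p under 0.05 was found for 12 (4 higher, 8 lower), 41.4% against 9.45%, and DESeq2 called 4 (1 higher, 3 lower), 13.8% against 4.73%. Within-group spread was small in this list, with a median coefficient of variation of 11.1% against 19.1% of all. Of its 36 genes 1 rose and 17 fell, against 11.4% and 9.72% of all genes. RPL11-204, of a large-subunit protein, held 30.6, 30.6 and 32.1% in wild-type and 26.5, 28.7 and 28.1% in knockout libraries. Knockout libraries all lay lower (log2 -0.17 ± 0.04 SE, edgeR adjusted p = 0.275, DESeq2 adjusted p = 0.002, limma-voom adjusted p = 0.626), and the transcript has 231 bases of its own. EIF4A2-203, of an initiation helicase, held 12, 12.5 and 15% in wild-type and 10.5, 10.1 and 10.4% in knockout libraries (log2 -0.35 ± 0.09 SE, edgeR adjusted p = 0.343, DESeq2 adjusted p = 0.0209, limma-voom adjusted p = 0.448) while EIF4A2 rose from 289 to 379 CPM (log2 0.39, edgeR adjusted p = 0.0109). These 2 were chosen after their values were seen.

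Genes of the integrated stress response, the pathway through ATF4 to which ATF3 belongs, had 22 decay transcripts in 13 of 40 genes. Of the 40 genes 0 rose and 35 fell, against 11.4% and 9.72% of all genes. Of the decay shares 11 lay higher and 11 lower, 3 had an unadjusted p under 0.05, all lower, 13.6% against 9.45%, and DESeq2 called 3, all lower, 13.6% against 4.73%. MTHFD2-205, of the mitochondrial folate enzyme, had the most reads and held 21.4, 22.6 and 21.2% in wild-type and 22.6, 17.7 and 17% in knockout libraries. Knockout replicate 1 lay among the wild-type values, while MTHFD2 fell from 649 to 397 CPM (log2 -0.71, edgeR adjusted p = 0.0087). HERPUD1-210, of a protein of endoplasmic reticulum degradation, held 13.7, 10.1 and 11.4% in wild-type and 8.74, 6.68 and 8.3% in knockout libraries (log2 -0.57 ± 0.16 SE, edgeR adjusted p = 0.365, DESeq2 adjusted p = 0.03, limma-voom adjusted p = 0.749).

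How well a share can be estimated depends on the sequence that sets the transcript apart. Of the 3603, 926 had 100 or more bases found in no other transcript on the same strand, and 762 (21.1%) had neither a base nor a junction of their own. The median within-group coefficient of variation was 20.6% in the first set, 34.8% in the second and 29.3% in the 1915 between them. At 0 in a whole group, with reads in the other, were 5, 39 and 39 tested transcripts of these sets. Zero reads in 1 or more libraries were estimated for 884 of all 3603.

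In some genes a pair of decay transcripts lay apart in opposite directions. TBL2-203 held 17.1, 0 and 17.4% in wild-type and 37.9, 32.3 and 41.9% in knockout libraries, and TBL2-209 held 35.5, 50.8 and 38.1% in wild-type and 17.3, 22.3 and 12.9% in knockout libraries. The summed decay share of TBL2 had a log2 of 0.01, and wild-type replicate 2 had no reads on TBL2-203. The adjusted p of TBL2-209 was 0.237 in edgeR, 0.000162 in DESeq2 and 0.0704 in limma-voom. For TBL2-203 it was 0.795 in edgeR, 0.83 in DESeq2 and 0.00826 in limma-voom. CENPC-203 held 41.8, 37.8 and 39.7% in wild-type and 28.5, 27.4 and 27.8% in knockout libraries and CENPC-206 held 14.6, 15 and 15.2% in wild-type and 21.6, 25.8 and 25.4% in knockout libraries. Each was apart between the groups (edgeR adjusted p = 0.116 and 0.135, DESeq2 adjusted p = 6.52e-08 and 3.17e-07, limma-voom adjusted p = 0.067 and 0.105), in opposite directions, and their gene's summed decay share had a log2 of -0.08. CENPC-203 carries the 353-base exon printed above up to its stop codon, and the whole exon is its own. CENPC fell from 61.6 to 44.3 CPM (log2 -0.48, edgeR adjusted p = 0.0453).

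Single libraries set a few values. RBM47-207, of an RNA-binding protein, had 240 reads in knockout replicate 3, 23.7% of its gene, and 0 in each of the other 5 libraries. RBM6-205 held 5.77, 6.09 and 2.67% in wild-type and 0, 5.42 and 0% in knockout libraries, at 0 in knockout replicates 1 and 3. Steadier examples were MAD2L1-202, of a spindle checkpoint protein, at 51.3, 51.2 and 51.4% in wild-type and 57.2, 56.6 and 56.7% in knockout libraries, and DENND1C-211, of a guanine nucleotide exchange factor, at 25, 26.9 and 28% in wild-type and 34.9, 35.1 and 35.6% in knockout libraries. The MAD2L1-202 shares were 51.3 ± 0.1% and 56.8 ± 0.33% (SD, n = 3 each), with log2 0.15 ± 0.02 SE. Its adjusted p was 0.12 in edgeR, 0.00585 in DESeq2 and 0.159 in limma-voom. Reads of MAD2L1-202 itself were lower, at 1796, 1778 and 1866 in wild-type and 1347, 1446 and 1452 in knockout libraries. MAD2L1 as a whole fell from 127 to 90.4 CPM (log2 -0.49, edgeR adjusted p = 0.0081). For DENND1C-211 the values were log2 0.40 ± 0.05 SE and an adjusted p of 0.118 in edgeR, 1.7e-09 in DESeq2 and 0.0613 in limma-voom. All 8 transcripts of these pairs and single cases were chosen after their values were seen.

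By origin of the stop, transcripts with an added exon lay lower more often than higher. Of 901 tested, 369 lay higher and 532 lower, with a median log2 of -0.09 against 0.00 of all. An unadjusted p under 0.05 was found for 25 higher and 64 lower, 2.77 and 7.1% where the background is 4.72% in each direction. DESeq2 called 8 higher and 32 lower, 0.888 and 3.55% against 2.3 and 2.43%. No overlap was seen for 55 higher and 127 lower, 6.1 and 14.1% against 9.46 and 9.36%. Transcripts with the stop in an exon of the coding transcript and none skipped leaned the same way, with 332 higher and 420 lower (median -0.06). In that class 16 higher and 39 lower had an unadjusted p under 0.05, 2.13 and 5.19%, and DESeq2 called 7 and 24, 0.931 and 3.19%. Among those in which an exon was skipped, 528 lay higher and 554 lower (median -0.01), and among those with the stop in other intron sequence, 217 lay higher and 205 lower (median 0.02). Transcripts that GENCODE types as retained intron, 7344 of them tested, had 491 higher and 257 lower with an unadjusted p under 0.05, 6.69 and 3.5% against 4.72%, and a median of 0.06. The difference between these classes was not tested.

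Taking all decay transcripts of a gene as a sum leaves out any exchange of reads among them. Of 2618 genes tested 0 passed in edgeR (0% called), 263 had an unadjusted p under 0.05 (10%), and DESeq2 called 129 (44 higher, 85 lower; 4.93%, as 1.68% and 3.25%). The level of each transcript, scaled by TMM and without regard to its gene, gave 0 edgeR calls of 42248 transcripts (0%). Of the 3603 decay transcripts 477 had an unadjusted p under 0.05, a smaller part than the 17.9% of all transcripts. Their smallest adjusted p was 0.0509. DESeq2 called 381 of the 3603 levels (141 higher, 240 lower), a smaller part than the 14.5% of all transcripts (7.12% higher, 7.4% lower). Of 2611 parent genes tested 287 rose and 344 fell, 24.2% against 21.1% of all genes.

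Over whole libraries, decay transcripts of any level held 3.62, 3.52 and 3.57% of all reads in the wild-type libraries and 3.47, 3.45 and 3.41% in those of the knockout. The knockout libraries all lay lower, 3.44 ± 0.032% against 3.57 ± 0.048% (SD, n = 3 each), a difference of -0.125 points with a two-sided exact permutation p of 0.1, the smallest that 3 against 3 can give. The 6 transcripts with the most reads went from 0.352 to 0.293% of all reads (difference -0.059), and without them the members held 3.11 and 3.05% (exact p = 0.2). Decay transcripts of RNA-processing genes held 0.279 and 0.266% (exact p = 0.1).

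To show what gene levels alone would give, each gene's reads were multiplied by its mean decay share over the 6 libraries. This gave 3.52% in wild type and 3.49% in knockout, a difference of -0.031 points (exact p = 0.2). Wild-type replicate 2 lay nearest its value at fixed shares, and it was also the wild-type library nearest the knockout on the first principal component of the shares, which took 22.9% of the variance. Transcripts typed retained intron held 4.80 ± 0.129% and 4.93 ± 0.130% of all reads, which overlap (exact p = 0.5).

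**Figure D5:**
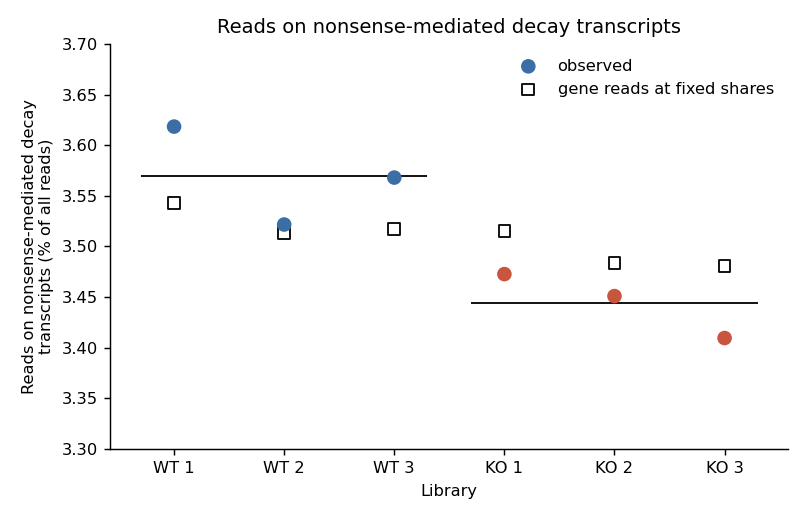
Reads on all nonsense-mediated decay transcripts as a percent of all reads (y axis, from 3.3 to 3.7) in each library (x axis; wild type blue, knockout red); lines are group means and open squares give the percent obtained from the gene reads at fixed shares. Observed values are 3.52 to 3.62% in wild type and 3.41 to 3.47% in knockout, and the squares differ less between groups.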

How the data were processed

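The authors deposited a Salmon table for each library with estimated counts and TPM per transcript, per the file headers. The submitters' processing notes name hg38 as the build and list FastQC 0.11.9 beside Salmon 1.6.0. For the transcriptome release and the library-type setting used with Salmon, nothing is given in the sources used here. No resampled estimates were used, so the error of dividing reads among similar transcripts is not measured. Transcripts were joined to GENCODE 29 by identifier, version ignored: 167027 of 177456 matched (3576 of the 3603 decay transcripts with the same version), and the 10429 unmatched held 3.59 to 3.82% of the reads and stayed out. The deposited TPM served as an alternative for shares alone.

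Estimated counts were rounded. Shares were tested with edgeR 4.0.16 (R 4.3.3, quasi-likelihood, group alone, all 6 libraries), with the log of the parent gene's reads (at least 1) as offset, over 39664 transcripts with a mean of 20 reads or more whose gene held a mean of 20 or more on other transcripts, and Benjamini-Hochberg adjustment over all at 0.05. SE is the fitted log2 change divided by the root of F. Gene and transcript levels used TMM factors, and CPM are TMM-scaled. Library percents were compared by two-sided exact permutation. DESeq2 1.42.0, diffSpliceDGE and limma 3.58.1 were alternatives. The fit was tested on simulated data. Depth was 26766103 to 30117281 reads per library.

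The transcripts, the 7 gene lists and the tests were chosen with earlier results of these data known. Named by rule were the 6 decay transcripts with the most reads, the 3 smallest p in each direction (as none passed) and the one with the most reads in each list. All other names were chosen after their values were seen. Same-numbered replicates correlated at -0.128, 0.121 and 0.291 in their deviations from the group means, so the numbers were not taken to pair the samples. Results of 1 gene and the sequence of 1 exon are not reported here.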

Additional observations from a re-analysis of the deposited data

How the results depend on the processing

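Among decay transcripts 0 shares passed under edgeR's quasi-likelihood test in every run made: minimum means of 50 and of 1 read, identical versions alone, protein-coding and decay transcripts as denominator, the replicate block and each library left out, whereas DESeq2 called 158, diffSpliceDGE 30 and limma-voom 32. Over all transcripts the 0 became 1877, 276 and 376 with those tools, 2 with the other denominator, and 0 to 4 with a library left out (4 without wild-type replicate 2). Summed shares gave 129 calls in DESeq2 and 1 with identical versions alone, and read levels 381 in DESeq2. Parent gene calls, 631, became 0 without wild-type replicate 1, 78 without wild-type replicate 3, 322 without knockout replicate 1 and 407 without knockout replicate 2, with a highest count of 646. The cause was not tested, beyond the fewer samples in those runs. The library-wide difference ranged from -0.149 to -0.100 points with a library left out.

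The replicate numbers were not taken to pair the samples, though so few correlations cannot exclude a pairing. With the replicate block 0 shares and 533 parent genes passed.

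Of 798 alternative values of 54 named shares, 743 gave the same side and direction, 32 passed in another tool and 23 changed sign, of transcripts whose reported log2 values lie between -0.09 and 0.23. With a library left out the lowest and highest log2 values were -0.087 and 0.0207 for TKT-204, -0.0118 and 0.0504 for DDX5-218, -0.00527 and 0.0624 for CSTF1-206, -0.0245 and 0.0426 for SRSF3-204, -0.149 and 0.011 for SRSF1-206, -0.239 and 0.039 for DHX34-202, -0.0412 and 0.0902 for MAGOHB-209 and -0.0567 and 0.229 for HNRNPH1-219. In limma-voom HSPA9-215 was at -0.0213, DDX5-218 at -0.0539, SRSF3-204 at -0.0247 and HNRNPL-202 at -0.027. From TPM HSPA9-215 was at -0.0559, CSTF1-206 at -0.0534, SRSF3-204 at -0.0307 and MAGOHB-209 at -0.155. With identical versions SRSF3-204 was at -0.0497 and MAGOHB-209 at -0.0669, and with the other denominator RBM39-216 was at -0.0522 and CLK1-204 at -0.0525. SRSF6-202 could not be fitted with identical versions alone. The cause was not tested. For shares under 5% the median within-group coefficient of variation was 41.4%, which limits what could be called there.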
